A study of Rattus norvegicus with 10 samples.

Results

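The comparison described here set RPE-J cells given PNU-282987 (PNU below) for 12 h against RPE-J cells given the vehicle DMSO for 12 h, and it used 2 of the 10 libraries of the series, 1 on each side. RPE-J is a rat retinal pigment epithelium line from the Long-Evans strain, transformed with SV40 and grown at reduced temperature, and it is a single immortalised line. PNU was given at 100 nM in the usual medium, the vehicle group received DMSO at a concentration that the labels do not state, and all cells were taken off their flasks with trypsin before RNA extraction and polyA selection. The other 8 libraries, 1 per condition, came from PNU at 30 min, 1 h, 3 h and 8 h, nicotine (1 µM, the receptor activation control) at 1 h and 12 h, and MLA (100 nM, the negative control) at 1 h and 12 h. The same DMSO 12 h library is the vehicle for every one of them. Column headers carry library numbers, and the number of PNU 12 h was assigned by elimination, since the file records tie the other numbers to samples.

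PNU activates the α7 subtype of nicotinic acetylcholine receptor, a ligand-gated channel that lets calcium into the cell and can feed into calcium and kinase signalling. The retinal pigment epithelium supports photoreceptors by recycling retinoids, taking up lipid-rich outer segment membranes and secreting growth factors and matrix. Such cells hold immediate transcriptional programmes for growth factor and mechanical signals, SREBP-driven programmes for making and importing lipids, and NF-kB-driven programmes for chemokines. Genes of cholesterol synthesis, immediate early genes and genes driven by the aryl hydrocarbon receptor (AhR) are covered here only as far as the remaining genes need it.

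The table of this pair listed 13438 genes, of which 11262 had a mean level of 50 or more and were tested. A level is a number of reads divided by a size factor set within the pair, so that it can be compared between the libraries but not between genes of different length. The ratio is PNU 12 h over DMSO 12 h on the log2 scale, and a gene counted as different when it was at least 2-fold apart. The reads in listed genes numbered 29539560 in PNU 12 h and 22012903 in DMSO 12 h. With 1 library a side no difference has a replicate check, no p-value was computed, and the differences are between 2 libraries; the 95% intervals given beside ratios are exact binomial intervals for counting error only. In RNA from a whole culture, fewer cells of a kind and less RNA per cell cannot be told apart.

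By this rule 68 genes (0.604% of those tested) differed, 19 higher (0.169%) and 49 lower (0.435%) in PNU 12 h. At 1.5-fold there were 121 higher (1.07%) and 206 lower (1.83%). The median log2 ratio over all tested genes was -0.00, and 49.0% lay above 0. Of the 68 genes, 20 belonged to the 3 programmes set aside above: 11 of 24 tested cholesterol synthesis genes and 6 of 27 immediate early genes were lower, and 3 of 7 AhR targets were higher. A further 21 carried a gene name, 4 of them higher and 17 lower, and the last 27 carried only a clone, sequence or locus number. Counted in the authors' deposited table, 0 genes had an adjusted p-value under 0.05, 101 had an unadjusted p-value under 0.05, and the lowest adjusted p-value was 0.999724; those values also come from 1 library against 1.

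**Figure D1:**
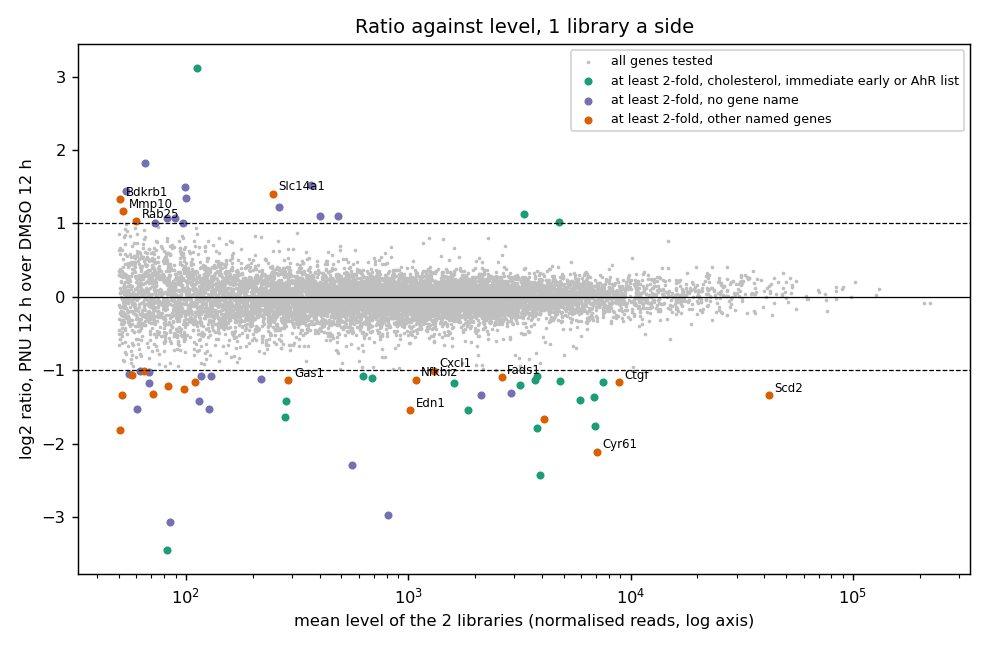
Log2 ratio of PNU 12 h over DMSO 12 h for the 11262 tested genes, against the mean level of the 2 libraries in normalised reads on a log axis; each point is 1 gene and the dashed lines mark 2-fold. Most coloured points above 2-fold lie at low levels, whereas the lower named genes include Scd2, Ctgf and Cyr61 at mean levels of 41841, 8871 and 7075; names are written for the higher genes and for most of those with a mean level of 200 or more.

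The spread of the ratio was widest among the genes with the fewest reads. In the band of mean levels from 50 to 100, 24 of 979 genes (2.45%) were at least 2-fold apart, 10 higher and 14 lower, and the interquartile range of the log2 ratio was 0.51. Between 1000 and 2000 it was 5 of 2187 genes (0.23%), 0 of them higher, with an interquartile range of 0.22. The share was 0.60% from 2000 to 5000 and 0.69% from 5000 upward, where the interquartile range was 0.21. Of the 68 genes, 35 had a counting interval lying wholly past 2-fold, 6 higher and 29 lower. A mean of 50 can be reached through the higher of the 2 libraries alone. Among the named genes below, Bdkrb1, Mmp10, Rab25, Fgl2, Itgb8, Rpl35al1, Tmtc1 and Dhrs3 passed so, each under 50 in its lower library.

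Genes of fatty acid synthesis and desaturation leaned lower in PNU 12 h. Among the 16 tested genes listed here for sterol uptake, efflux and SREBP control, Stard4, a carrier of cholesterol between membranes, had the largest difference. It had a level of 352 in PNU 12 h and 657 in DMSO 12 h (log2 ratio -0.90, interval -1.09 to -0.72) and was the only one past 1.5-fold. Of these 16 genes 11 lay below 0 and 5 (31.2%) above, beside 49.0% above over all tested genes, with a median of -0.07. Insig1, a gene of SREBP control, was counted with the cholesterol synthesis genes instead, at 1232 in PNU 12 h and 6612 in DMSO 12 h (log2 ratio -2.42). Srebf1, described below, was not in this list either.

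The list of fatty acid synthesis and desaturation had the lowest median of the lists with at least 10 tested genes, the 3 programmes set aside apart, at -0.42 beside -0.00 over all tested genes. Of its 22 tested genes 20 lay below 0 and 2 above, 3 were lower at least 2-fold (13.6%, beside 0.435% over all) and 7 at least 1.5-fold (31.8%, beside 1.83% over all). Scd2, a stearoyl-CoA desaturase that makes monounsaturated fatty acids, had a level of 23724 in PNU 12 h and 59958 in DMSO 12 h (log2 ratio -1.34, interval -1.36 to -1.32). On a scale shared by all 10 libraries both lay outside the 8 others, which ran from 22839.5 to 53804: PNU 12 h was the lowest of 10 at 22278 and DMSO 12 h the highest at 55728. The low end was close, where nicotine 12 h had 22839.5, PNU 8 h 24235 and MLA 12 h 25058. Against each gene's median library, the list median was -0.20 in PNU 12 h and 0.20 in DMSO 12 h, with nicotine 1 h lowest at -0.21 and PNU 30 min highest at 0.21.

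Fads1, the delta-5 desaturase of polyunsaturated fatty acids, had a level of 1680.0 in PNU 12 h and 3587 in DMSO 12 h (log2 ratio -1.09, interval -1.18 to -1.01). Fads2, the delta-6 desaturase, ended just short of 2-fold, at 1665 in PNU 12 h and 3304 in DMSO 12 h (log2 ratio -0.99). Lpin1, a phosphatidate phosphatase of triglyceride synthesis that also acts as a transcriptional coactivator, was read at a low level, 50.1 in PNU 12 h and 116 in DMSO 12 h (log2 ratio -1.21, interval -1.70 to -0.73). On the shared scale Lpin1 was lowest in PNU 12 h, at 47.1, just under PNU 8 h at 51.7, while DMSO 12 h at 108 stayed below PNU 30 min (125) and PNU 1 h (126). Srebf1, the transcription factor that drives the fatty acid genes, had a log2 ratio of -0.83, Fasn, the fatty acid synthase, of -0.50, and Acaca, the carboxylase that makes malonyl-CoA, of -0.46. Fatty acid oxidation genes did not share this pattern: of 19 tested genes 12 lay above 0 and 7 below, 0 were past 1.5-fold, and the median was 0.02.

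Cyr61 (also named Ccn1) and Ctgf (Ccn2) are matricellular proteins that bind integrins, and both are textbook targets of YAP and its DNA-binding partner TEAD as well as early serum-responsive genes. Because both lead the list of YAP and TEAD targets, the bases before their start sites are shown first, with the TEAD core GGAATG, on either strand, in capitals. The stretches are from RefSeq (build GRCr8), 5′ to 3′ on the gene's strand and end at the last base before the start: Cyr61 lies at chr2:237225690-237225819 and Ctgf at chr1:22624615-22624794, both on the minus strand.
Cyr61: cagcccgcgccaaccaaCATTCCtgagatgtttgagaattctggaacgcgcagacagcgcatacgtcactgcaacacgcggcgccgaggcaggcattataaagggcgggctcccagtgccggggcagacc
Ctgf: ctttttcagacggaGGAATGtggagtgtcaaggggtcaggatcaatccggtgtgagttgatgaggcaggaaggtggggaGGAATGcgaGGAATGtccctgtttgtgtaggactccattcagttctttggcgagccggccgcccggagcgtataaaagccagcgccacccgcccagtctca
The Cyr61 match lay 113 to 108 bases before the start, on the reverse strand, and Ctgf held 3 matches beginning 166, 101 and 92 bases before it. Of the 21 named genes outside the set-aside programmes 18 were matched to the promoter table, and 4 of these, Cyr61, Ctgf, Itgb8 and Nfkbiz, held GGAATG on either strand within 250 bases before to 50 bases after the start, as did 15.03% of 27457 genes. A match is a run of letters and says nothing of binding in these cells.

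Cyr61 had the lowest ratio of any named gene outside the set-aside programmes, with a level of 2669 in PNU 12 h and 11480.3 in DMSO 12 h (log2 ratio -2.10, interval -2.16 to -2.05, 4.30-fold lower). Its shared-scale level was 2507 in PNU 12 h, 2375 in nicotine 12 h, 2554 in MLA 12 h and 10670.4 in DMSO 12 h. DMSO 12 h stood far above the other 9 libraries, the highest of which was PNU 30 min at 5949.7. Ctgf had a level of 5478 in PNU 12 h and 12265 in DMSO 12 h (log2 ratio -1.16, interval -1.21 to -1.12), and here too only DMSO 12 h lay outside the 8 others, whose levels on the shared scale ran from 4649 to 9039. F3, which encodes tissue factor and starts coagulation, had 1399 in PNU 12 h and 2658 in DMSO 12 h (log2 ratio -0.93), and Ankrd1, a nuclear ankyrin repeat protein, a log2 ratio of -0.62. In the list of YAP and TEAD targets 16 of 21 tested genes lay below 0 and 5 above, 2 were lower at least 2-fold (9.52%, beside 0.435% over all), 4 at least 1.5-fold (19.05%, beside 1.83% over all), and the median was -0.18. The list taken whole did not follow its leading pair: against each gene's median library, its median was -0.17 in PNU 12 h, the lowest of the 10, and -0.00 in DMSO 12 h, with PNU 3 h highest at 0.23.

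Edn1, the gene of the vasoactive peptide endothelin-1, had a level of 523 in PNU 12 h and 1523 in DMSO 12 h (log2 ratio -1.54, interval -1.68 to -1.40). Across all libraries PNU 12 h, at 491, lay with MLA 12 h at 496 and PNU 1 h at 498, while DMSO 12 h had 1415 and PNU 30 min, the next highest, 985. In the list of TGF-beta responses, which Edn1 led, 13 of 19 tested genes lay below 0 and 6 (31.6%) above, beside 49.0% above over all, 1 was lower at least 2-fold (5.26%, beside 0.435% over all), and the median was -0.31. Its next members were Bhlhe40, a transcriptional repressor that is also part of the circadian clock (-0.92), Thbs1, the matrix glycoprotein thrombospondin-1 (-0.57), and Tgfb2, a TGF-beta ligand (-0.46), each given as its log2 ratio.

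The list of ID and BMP responses leaned the same way, with 12 of 14 tested genes below 0 and a median of -0.26, but 0 of them were past 2-fold. Smad6, an inhibitor of BMP receptor signalling, had the largest difference, 176 in PNU 12 h and 289 in DMSO 12 h (log2 ratio -0.71, interval -0.99 to -0.44), and was the only member past 1.5-fold. The secreted BMP modulator Bmper (-0.47), the type I receptor Bmpr1a (-0.41) and Id1, an inhibitor of helix-loop-helix factors (-0.37), followed as log2 ratios. For this list and the TGF-beta list PNU 12 h was the lowest library: against the median library, the list median was -0.23 (ID and BMP) and -0.21 (TGF-beta) in PNU 12 h and -0.03 (ID and BMP) and 0.01 (TGF-beta) in DMSO 12 h. Other libraries stood off on the high side, MLA 1 h at 0.18 and PNU 3 h at 0.15 for ID and BMP, and PNU 3 h at 0.26 for TGF-beta, which was farther from 0 than PNU 12 h.

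Feedback inhibitors that growth factor signalling through ERK switches on leaned lower. Of 22 tested genes in that list 16 lay below 0 and 6 above, 0 were past 2-fold and 7 were lower at least 1.5-fold (31.8%, beside 1.83% over all), with a median of -0.28. Spry2, an inhibitor of receptor tyrosine kinase signalling, had a level of 573 in PNU 12 h and 1128 in DMSO 12 h (log2 ratio -0.98, interval -1.12 to -0.83). Dusp5, a nuclear phosphatase of ERK, had 616 in PNU 12 h and 1199 in DMSO 12 h (log2 ratio -0.96, interval -1.10 to -0.82). For both, DMSO 12 h was the highest of the 10 libraries on the shared scale, and PNU 12 h lay among the others. For the list as a whole it was PNU 12 h that was lowest, with a median against each gene's median library of -0.13 in PNU 12 h and 0.09 in DMSO 12 h, where only nicotine 1 h was higher, also at 0.09. The related Spry1 (-0.78) and Spry4 (-0.77) had smaller log2 ratios, and Spry1 was read at under 70 in both libraries.

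The bases before the Dusp5 start are shown because they hold the SRF element known as a CArG box, in capitals, as 2 adjoining matches 82 to 63 bases before the start (RefSeq, build GRCr8, chr1:262543664-262543773, plus strand).
Dusp5: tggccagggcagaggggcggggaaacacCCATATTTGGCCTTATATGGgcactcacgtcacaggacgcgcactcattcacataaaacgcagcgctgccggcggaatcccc
A CArG box on either strand was found in the promoter windows of 1.77% of the 27457 genes and in 0 of the 18 matched genes that passed 2-fold. The contractile and actin genes that SRF also serves were evenly split, 11 of 22 above 0 and 11 below, with a median of -0.01. Among them Mylk, myosin light chain kinase, stood highest, at 124 in PNU 12 h and 69.4 in DMSO 12 h (log2 ratio 0.83, interval 0.39 to 1.29), followed by Acta2, smooth muscle actin (0.50).

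**Figure D2:**
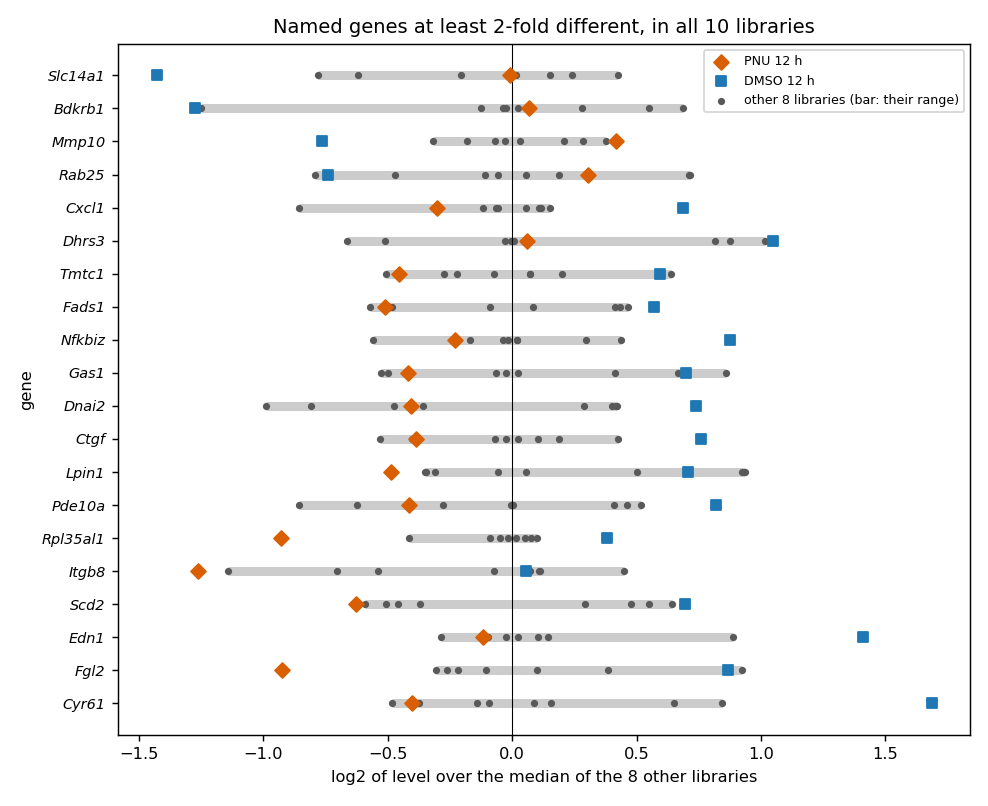
Levels of 20 of the 21 named genes at least 2-fold apart, outside the cholesterol, immediate early and AhR lists, in all 10 libraries; the x axis is the log2 of the level over the median of the 8 other libraries, diamonds are PNU 12 h, squares DMSO 12 h, dots the 8 others and bars their range. DMSO 12 h alone lay outside the bar for 11 of the genes drawn, PNU 12 h alone for 3, both for 3 and neither for 3.

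Among inflammatory genes, Cxcl1, a chemokine that attracts neutrophils, had a level of 872 in PNU 12 h and 1747 in DMSO 12 h (log2 ratio -1.003, interval -1.12 to -0.89), and so sat at the edge of the 2-fold rule; it fell short with size factors over all 10 libraries (-0.988) and with a pseudocount of 10 (-0.995). Nfkbiz, a nuclear IκB protein that helps NF-kB switch on secondary response genes, had 679 in PNU 12 h and 1480.0 in DMSO 12 h (log2 ratio -1.12, interval -1.25 to -0.99). DMSO 12 h was highest of all for both on the shared scale, 1624 for Cxcl1 against at most 1121 in the 8 others, and 1376 for Nfkbiz against at most 1014. Lif, a cytokine that acts through STAT3, had a log2 ratio of -0.70.

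Both genes are known targets of NF-kB, and the bases before their starts each hold its motif, in capitals (RefSeq, build GRCr8, Cxcl1 at chr14:17479322-17479441 on the minus strand and Nfkbiz at chr11:58251641-58251720 on the plus strand).
Cxcl1: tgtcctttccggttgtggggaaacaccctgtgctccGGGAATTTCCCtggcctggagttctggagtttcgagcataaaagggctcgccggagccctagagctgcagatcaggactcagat
Nfkbiz: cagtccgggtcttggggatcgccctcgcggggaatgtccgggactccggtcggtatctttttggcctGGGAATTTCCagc
The Cxcl1 stretch has 2 overlapping matches, from 84 to 74 bases before the start, and the Nfkbiz match lies 13 to 4 bases before it; the Nfkbiz stretch also holds the TEAD letters ggaatg, in lower case here. The motif was found on either strand in the windows of 4.51% of the 27457 genes and of 3 of the 18 matched genes, the third being Ctgf.

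Of the 21 tested subunits and feedback genes of NF-kB itself 15 (71.4%) lay above 0 and 6 below, beside 49.0% above over all, and the median of 0.20 was the highest of all lists with at least 10 tested genes. Traf1, an adaptor of TNF receptors, had a level of 149.5 in PNU 12 h and 93.7 in DMSO 12 h (log2 ratio 0.67, interval 0.28 to 1.07). Relb, a subunit of the alternative NF-kB pathway, had 952 in PNU 12 h and 627 in DMSO 12 h (0.60, interval 0.45 to 0.75), and Nfkb2, its usual partner, 2455 in PNU 12 h and 1703 in DMSO 12 h (0.53, interval 0.44 to 0.62). No member of the list was higher at 2-fold, 2 were at 1.5-fold (9.52%, beside 1.07% over all), and Nfkbiz was the only one lower at either fold. DMSO 12 h was the lowest of the 10 libraries for Relb and Nfkb2 on the shared scale. The list median against each gene's median library was 0.01 in PNU 12 h and -0.14 in DMSO 12 h, with MLA 1 h lower still at -0.16.

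Of the kinin receptors Bdkrb1 was higher and Bdkrb2 fell short of 2-fold. Bdkrb1, the bradykinin receptor that inflammation induces, had a level of 72.6 in PNU 12 h and 28.9 in DMSO 12 h, from 84 reads in PNU 12 h and 25 in DMSO 12 h (log2 ratio 1.33, interval 0.67 to 2.03). Bdkrb2, the receptor that cells carry without such a stimulus, had 179 in PNU 12 h and 103 in DMSO 12 h (log2 ratio 0.80, interval 0.43 to 1.17). On the shared scale Bdkrb2 was 168 in PNU 12 h and 95.7 in DMSO 12 h. Both lay below the 8 others, which ran from 177 to 264. The shared-scale level of Bdkrb1 was 68.2 in PNU 12 h, 59.6 in nicotine 12 h, 63.4 in MLA 12 h and 26.9 in DMSO 12 h, and PNU 30 min, at 27.3, lay beside DMSO. In the list of chemokines, cytokines and their receptors 12 of 24 tested genes lay above 0 and 12 below, with 1 past 2-fold in each direction (4.17% each, beside 0.169% higher and 0.435% lower over all).

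Slc14a1, a urea transporter of the plasma membrane, was the highest named gene outside the set-aside programmes and the only one of the 4 higher genes whose counting interval lay wholly past 2-fold. Its level was 359 in PNU 12 h and 135 in DMSO 12 h (log2 ratio 1.41, interval 1.11 to 1.71). On the shared scale it was 337 in PNU 12 h, 455 in nicotine 12 h, 376 in MLA 12 h and 126 in DMSO 12 h. PNU 12 h was near the median of the 8 others, 339, and DMSO 12 h was the lowest of all, below PNU 30 min at 197. Of the other tested solute carriers 0 were past 2-fold, and the 188 together had a median of -0.00, with 90 above 0 and 98 below.

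Mmp10, the matrix-degrading protease stromelysin-2, had a level of 72.6 in PNU 12 h and 32.4 in DMSO 12 h, from 84 reads in PNU 12 h and 28 in DMSO 12 h (log2 ratio 1.16, interval 0.53 to 1.84; 0.96, short of 2-fold, with a pseudocount of 10). Across all 10 libraries both lay outside the 8 others on the shared scale, 40.9 to 66.4, with PNU 12 h highest at 68.2 and DMSO 12 h lowest at 30.1. Its bases before the start are shown for the AP-1 motif TGANTCA, in capitals, 61 to 55 bases before it (RefSeq, build GRCr8, chr8:12974617-12974706, plus strand).
Mmp10: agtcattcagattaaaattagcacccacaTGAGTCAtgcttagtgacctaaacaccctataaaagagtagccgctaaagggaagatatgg
The motif was found on either strand in 8.04% of the 27457 genes and in 2 of the 18 matched genes, Mmp10 and Rpl35al1. Mmp3, stromelysin-1, fell short of 2-fold, at 105 in PNU 12 h and 60.2 in DMSO 12 h (log2 ratio 0.80, interval 0.32 to 1.30). The secreted proteases Adamts1 (-0.88) and Adamts9 (-0.73) had negative log2 ratios. Of 23 tested metalloproteinases, related proteases and inhibitors 13 lay above 0 and 10 below, with a median of 0.05.

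Rab25, a small GTPase of epithelial membrane recycling, had a level of 80.4 in PNU 12 h and 39.3 in DMSO 12 h, from 93 reads in PNU 12 h and 34 in DMSO 12 h (log2 ratio 1.03, interval 0.45 to 1.64; 0.87 with a pseudocount of 10). Neither library lay outside the range of the 8 others on the shared scale, 35.2 to 100.3. Perp, a protein of desmosomes and a p53 target, ended just short of 2-fold at 98.5 in PNU 12 h and 50.9 in DMSO 12 h (log2 ratio 0.95). The 17 tested epithelial junction and keratin genes had a median of -0.01, with 8 above 0 and 9 below, and Rab25 and Perp were the only ones past 1.5-fold.

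The remaining lower genes were mostly read at low levels. Fgl2, a fibrinogen-like protein with prothrombinase activity, had a level of 22.5 in PNU 12 h and 78.7 in DMSO 12 h, from 26 reads in PNU 12 h and 68 in DMSO 12 h (log2 ratio -1.81, interval -2.52 to -1.14). Here it was PNU 12 h that lay outside the 8 others on the shared scale, at 21.1 against 32.5 to 76.0, while DMSO 12 h at 73.1 was inside. Itgb8, an integrin subunit that releases active TGF-beta from its latent form, had 29.4 in PNU 12 h and 74.1 in DMSO 12 h, from 34 reads in PNU 12 h and 64 in DMSO 12 h (log2 ratio -1.33, interval -1.98 to -0.71). It too was lowest in PNU 12 h, but nicotine 1 h was nearly as low on the shared scale, 27.6 in PNU 12 h beside 30.0 in nicotine 1 h. Of the other 12 tested integrin genes 0 were past 1.5-fold.

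Among phosphodiesterases, enzymes that end cyclic nucleotide signals, Pde10a was lower. It had 57.9 in PNU 12 h and 138 in DMSO 12 h (log2 ratio -1.25, interval -1.70 to -0.81), and Pde4b 59.6 in PNU 12 h and 111 in DMSO 12 h (-0.90, interval -1.37 to -0.44). Pde4b fell short of 2-fold, as did Pde4a at a log2 ratio of 0.55. Dnai2, an intermediate chain of axonemal dynein in motile cilia, had 68.3 in PNU 12 h and 153 in DMSO 12 h (log2 ratio -1.16, interval -1.58 to -0.75). Of 53 tested cilia and axonemal dynein genes Dnai2 was the only one past 2-fold, and their median was 0.00. For Pde10a and Dnai2 DMSO 12 h was the highest of the 10 libraries on the shared scale, and nicotine 12 h the lowest, at 40.04 and 42.8.

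Gas1, a membrane protein that binds hedgehog ligands and was found in arrested cells, had 181 in PNU 12 h and 398 in DMSO 12 h (log2 ratio -1.13, interval -1.39 to -0.88). Tmtc1, an endoplasmic reticulum enzyme that adds mannose to proteins, had 37.2 in PNU 12 h and 77.5 in DMSO 12 h (log2 ratio -1.06, interval -1.65 to -0.49; -0.89 with a pseudocount of 10). For these genes both libraries lay within the range of the 8 others. Dhrs3, a retinal reductase that limits retinoic acid formation, also passed narrowly, at 43.2 in PNU 12 h and 86.8 in DMSO 12 h (log2 ratio -1.01, interval -1.55 to -0.47; -0.86 with a pseudocount of 10). Rpl35al1, listed as a copy of a ribosomal protein gene, had 40.6 in PNU 12 h and 102 in DMSO 12 h (log2 ratio -1.33), and its value, like that of other ribosomal protein genes, is uncertain, since these genes have near-identical copies and how the counting treated reads that match several was not tested.

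**Figure D3:**
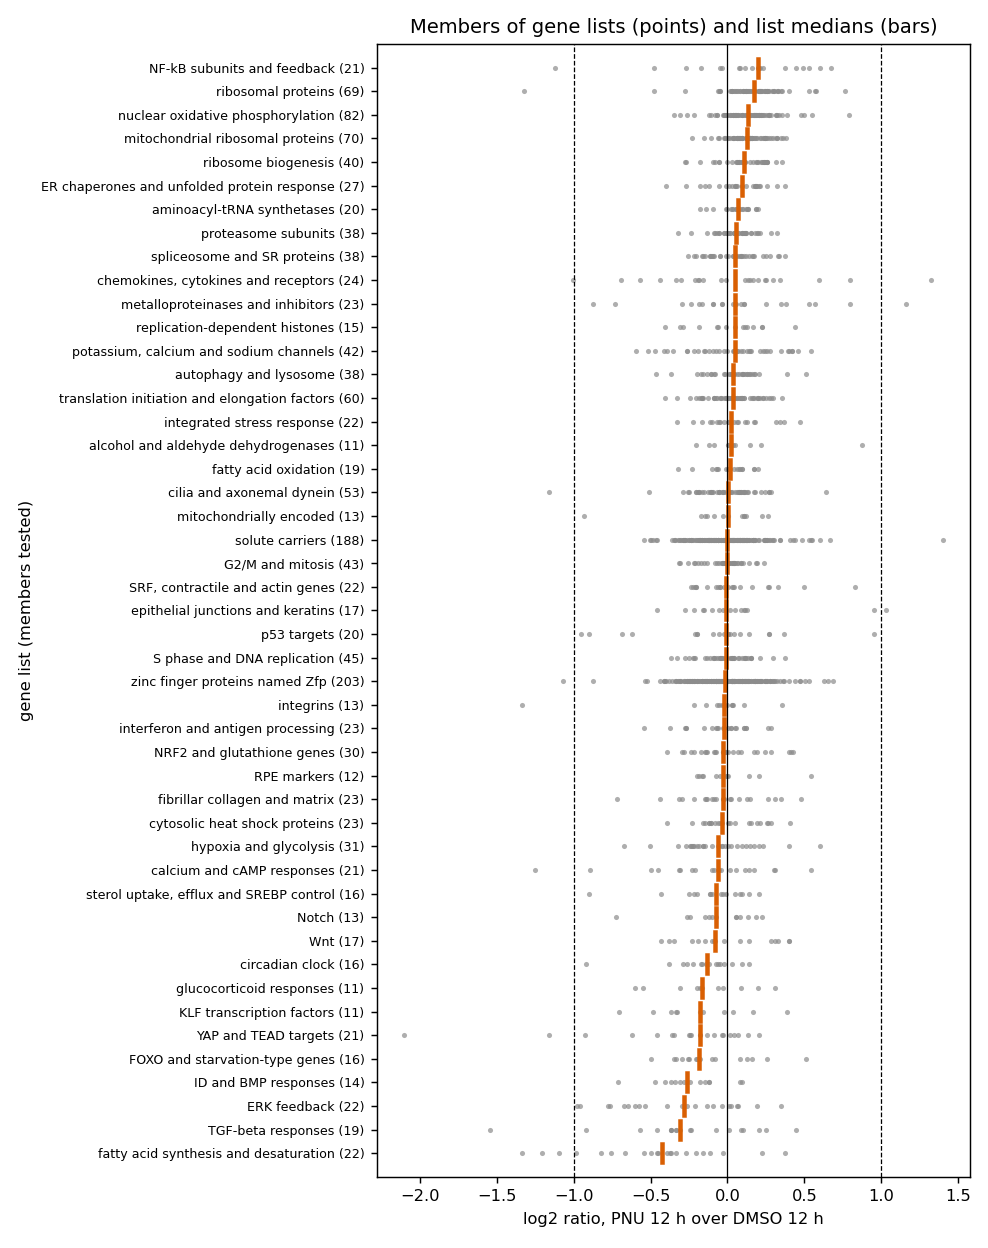
Log2 ratio of PNU 12 h over DMSO 12 h for members of the gene lists with at least 10 tested members, in order of their medians; each point is 1 gene, each bar a list median, and the dashed lines mark 2-fold. Medians ran from -0.42 for fatty acid synthesis to 0.20 for NF-kB subunits and feedback, and most lists lay within 0.2 of 0.

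Beside these single genes, large housekeeping sets lay slightly higher in PNU 12 h. Of 69 tested ribosomal protein genes 62 lay above 0 and 7 below, with a median log2 ratio of 0.17. Of 70 mitochondrial ribosomal protein genes it was 62 above and 8 below (median 0.13), and of 82 nuclear genes of oxidative phosphorylation 67 above and 15 below (median 0.14). Ribosome biogenesis genes (32 of 40 above 0, median 0.11), ER chaperones and unfolded protein response genes (20 of 27, median 0.09) and proteasome subunits (25 of 38, median 0.06) leaned the same way. Over all tested genes 49.0% lay above 0. In these 6 lists 0 genes were higher at 2-fold, beside 0.169% over all. At 1.5-fold 2 were, 1 ribosomal protein gene (1.45% of its list) and 1 oxidative phosphorylation gene (1.22%), beside 1.07% over all.

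Those 2 were Rps28, a protein of the small ribosomal subunit, and Atp5i, a small subunit of the mitochondrial ATP synthase. Rps28 had a level of 18479.6 in PNU 12 h and 10860.0 in DMSO 12 h (log2 ratio 0.77, interval 0.73 to 0.80). On the shared scale PNU 12 h, at 17353, was the highest of the 10 and DMSO 12 h, at 10094, lay inside the range of the 8 others, 9023 to 12482. Atp5i had 1827 in PNU 12 h and 1056 in DMSO 12 h (log2 ratio 0.79, interval 0.68 to 0.90), with PNU 12 h the highest and DMSO 12 h the lowest of the 10.

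PNU 12 h was the highest of the 10 libraries for 5 of these 6 lists. Against the median library, the median of the ribosomal protein genes was 0.21 in PNU 12 h and 0.02 in DMSO 12 h, and PNU 8 h was lowest at -0.17. For mitochondrial ribosomal proteins it was 0.16 in PNU 12 h and 0.02 in DMSO 12 h, for nuclear oxidative phosphorylation 0.19 in PNU 12 h and 0.02 in DMSO 12 h, and for proteasome subunits 0.11 in PNU 12 h and 0.02 in DMSO 12 h. PNU 8 h was the lowest of the 10 for each of these 4 lists, so libraries of the same compound lay at both ends. Ribosome biogenesis was different, at 0.07 in PNU 12 h and -0.06 in DMSO 12 h, the lowest of the 10, with nicotine 1 h highest at 0.10. ER chaperones were at 0.09 in PNU 12 h and -0.01 in DMSO 12 h, and PNU 1 h was lowest at -0.03. The share of reads from mitochondrially encoded genes, counted only from names that begin with Mt-, was close, 3.27% in PNU 12 h and 3.23% in DMSO 12 h.

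**Figure D4:**
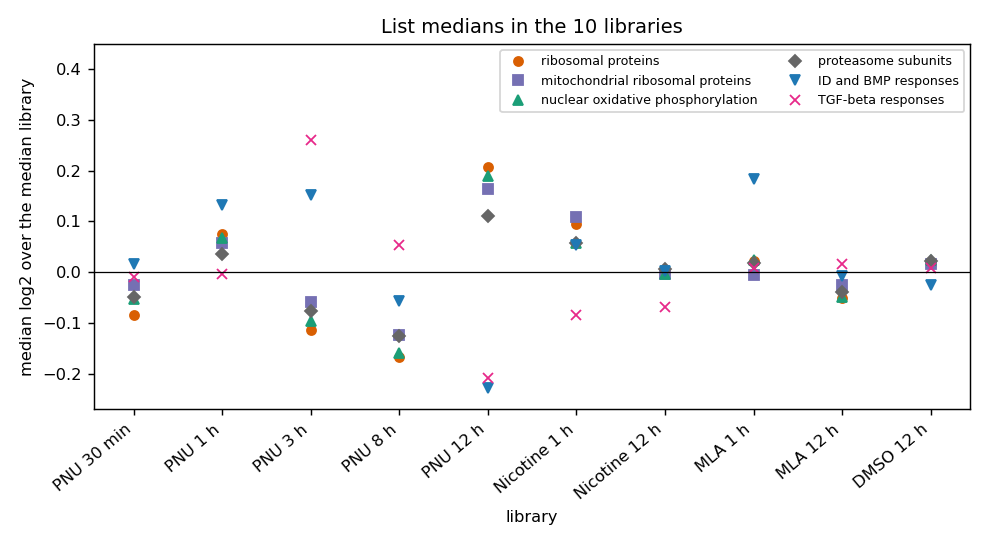
Median log2 level of 6 gene lists in each of the 10 libraries, relative to each gene's median library; each point is 1 list in 1 library. The ribosomal, oxidative phosphorylation and proteasome lists are highest and the TGF-beta and BMP lists lowest in PNU 12 h, whereas all 6 lie between -0.03 and 0.02 in DMSO 12 h.

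Proliferation genes leaned neither way. Of 43 tested G2/M genes 21 lay above 0 and 22 below (median -0.00), and of 45 S phase and replication genes 21 above and 24 below (median -0.01), with 0 past 1.5-fold in either list. The same held at 1.5-fold for fatty acid oxidation, interferon and antigen processing, integrated stress response, cytosolic heat shock and NRF2 and glutathione genes. The NRF2 list did not hold Nqo1, which was counted with the AhR targets. Nqo1 was higher, at 6368 in PNU 12 h and 3144 in DMSO 12 h (log2 ratio 1.02, interval 0.95 to 1.08). Hypoxia and glycolysis genes (31 tested, median -0.06) had 1 gene past 1.5-fold in each direction, Slc16a3, a lactate exporter (0.60), and Bnip3, a mitophagy receptor (-0.67). Of 16 tested circadian clock genes 13 lay below 0 (median -0.13), with Bhlhe40 the only one past 1.5-fold. Targets of p53 were split 10 and 10 around 0. At 1.5-fold 4 of the 20 were lower (20%, beside 1.83% over all) and 1 higher (5%, beside 1.07%). Below 0 were Plk2, a polo-like kinase (-0.95), Btg2, an antiproliferative protein also in the set-aside programmes (-0.90), and Pmaip1, the apoptosis gene Noxa (-0.69). Perp lay above 0. For Plk2, Btg2, Pmaip1 and Perp DMSO 12 h alone lay outside the range of the 8 others on the shared scale. Metallothionein gene Mt1m, which binds zinc and other metals, stopped a hair short of 2-fold at 71.7 in PNU 12 h and 35.9 in DMSO 12 h (log2 ratio 0.9996, interval 0.39 to 1.64), and reached 1.01 with size factors over all libraries.

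The edge of the rule was crowded. Among named genes, just inside it were Cxcl1 (-1.003), Dhrs3 (-1.01) and Rab25 (1.03), and just outside it Mt1m (0.9996), Fads2 (-0.99), Spry2 (-0.98) and Dusp5 (-0.96), all as log2 ratios. The counting intervals of all 7 cross 2-fold. Setting PNU 12 h against PNU 30 min, a comparison chosen after the data were seen, took 11 of the genes named above below 2-fold with their direction kept. These were Tmtc1 (-0.23), Cxcl1 (-0.42), Ctgf (-0.58), Nfkbiz (-0.67), Mmp10 (0.74), Slc14a1 (0.77), Rab25 (0.78), Dnai2 (-0.81), Dhrs3 (-0.81), Pde10a (-0.93) and Fads1 (-0.98), as log2 ratios of PNU 12 h to PNU 30 min.

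The 2 libraries stood apart from the rest for different genes. Over all 11262 tested genes PNU 12 h lay outside the range of the 8 others for 17.7% and DMSO 12 h for 16.0%. Among the 21 named genes PNU 12 h lay outside for 6 and DMSO 12 h for 15, and among the 20 genes of the set-aside programmes PNU 12 h lay outside for 2 and DMSO 12 h for 20. Among the 27 entries without a gene name the order was turned round, with PNU 12 h outside for 23 and DMSO 12 h for 11, beside 23.8% and 19.1% of the 965 tested entries of that kind. Genes past 2-fold were picked by a gap between these same 2 libraries, which by itself can raise such counts above the shares over all tested genes. With 1 DMSO library, a library effect and the vehicle cannot be told apart.

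**Figure D5:**
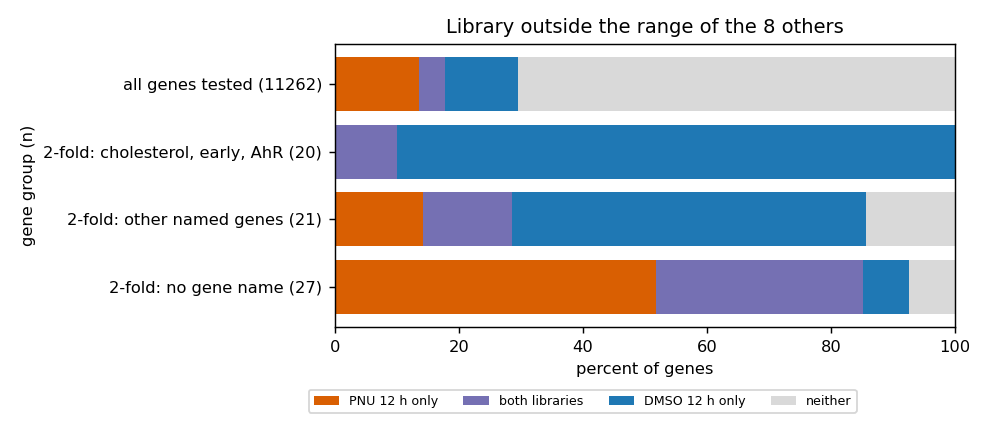
Share of genes, in percent, for which PNU 12 h, DMSO 12 h, both or neither lay outside the range of the 8 other libraries, for all tested genes and for 3 groups of genes at least 2-fold apart. DMSO 12 h alone accounts for 12 of 21 named genes and 18 of 20 genes of the cholesterol, immediate early and AhR lists, and PNU 12 h alone for 14 of 27 entries without a gene name.

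Entries without a gene name made up 39.7% of the genes past 2-fold, beside 8.57% of all tested genes, 12 of them higher and 15 lower. The lowest were LOC100912380, with a level of 18.1 in PNU 12 h and 152 in DMSO 12 h (log2 ratio -3.06, interval -3.80 to -2.39), and AABR07015081.1, with 185 in PNU 12 h and 1442 in DMSO 12 h (-2.96, interval -3.18 to -2.75). AABR07015081.1 varied widely among the others too, from 317 in PNU 1 h to 1538 in PNU 3 h on the shared scale. LOC680121 had 190.1 in PNU 12 h and 930.4 in DMSO 12 h (-2.29, interval -2.51 to -2.07), with PNU 12 h the lowest and DMSO 12 h the highest of the 10 libraries. The highest was LOC100364435, with 103 in PNU 12 h and 28.9 in DMSO 12 h (1.83, interval 1.20 to 2.51), and on the shared scale PNU 12 h, at 96.6, stood above all 9 others, of which the highest was nicotine 1 h at 44.5. No function is given for these entries in the tables used.

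Markers of the labelled cell type were present in part. Of 28 retinal pigment epithelium markers 17 were in the table and 12 reached a mean level of 50, among them Best1, a chloride channel of the pigment epithelium (5260.2 in PNU 12 h, 5906 in DMSO 12 h), Pmel, a melanosome protein (549 in PNU 12 h, 548 in DMSO 12 h), and Mitf, the pigment cell transcription factor (183 in PNU 12 h, 193 in DMSO 12 h). Rlbp1, a retinoid carrier, was under 25 in both libraries, and Rpe65, the visual cycle isomerase, had no value and was not analysed here. The summed level of the retinal pigment epithelium list was 68139 in PNU 12 h and 69639.6 in DMSO 12 h. Bsg alone held 40653 of it in PNU 12 h and 40776 in DMSO 12 h. The Müller glia and astrocyte list, which Vim dominates, summed to 69476 in PNU 12 h and 60781 in DMSO 12 h. Photoreceptor markers summed to 517 in PNU 12 h and 454 in DMSO 12 h, retinal neuron markers to 928 in PNU 12 h and 864 in DMSO 12 h, fibroblast and smooth muscle markers to 58368 in PNU 12 h and 59184 in DMSO 12 h, endothelial markers to 239 in PNU 12 h and 174 in DMSO 12 h and immune markers to 1029 in PNU 12 h and 969 in DMSO 12 h. In these 7 lists 0 genes at a mean level of 50 or more were past 2-fold. The largest log2 ratios were those of Myh11, smooth muscle myosin (0.81), Hes1, a Notch target and repressor (-0.72), and Cd68, a lysosomal protein of macrophages (0.71). The part of other cell types in the differences was not tested.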

How the data were processed

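PolyA-selected RNA was sequenced in 10 libraries, 1 for each condition. Per the submitters' processing notes reads went through Trimmomatic (0.36), STAR (2.5.2b), Subread (1.5.2) with its featureCounts, and DESeq2. Not given in the sources used here are the strand setting, the annotation and the genome build. There are 39 deposited tables, 1 per pair of libraries, of which the 9 with DMSO 12 h were read. Per the file headers each gives a gene identifier and name, 2 levels, a log2 fold change, a p-value and an adjusted p-value. The deposited level is a signal that behaves as reads divided by a size factor: dividing by its smallest step made 100% of the values whole to within 0.01 of a read. The table of this pair lists genes down to a mean level of 9.37, so lower genes were not analysed here. The log2 ratio was taken from the deposited levels, and the largest gap to the authors' deposited log2 fold change was 4.80e-05. The deposited p-values were only counted.

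Genes with a mean level of 50 or more were tested by size (2-fold), with no count model, because each group held 1 library. Nothing in the labels says that libraries came from separate cultures. Counting intervals (95%, Clopper-Pearson, exact binomial) rest on read numbers, and reads are not independent molecules. Levels set across all 10 libraries (the shared scale) were scaled by the median of ratios over 12903 genes. The members and lists were chosen with earlier results of these data known. Named genes are the 15 highest and 15 lowest past 2-fold that have a gene name and are in none of the cholesterol, immediate early and AhR lists, plus up to 4 members with the largest ratios in each of 59 lists; the text leaves some out. One gene past 2-fold is counted in the totals but not reported here, and was left out of its list. Dhrs3, Srebf1, Fasn, Acaca, the marker levels and the entries without a gene name were named after their values were seen. The 62 names carried by more than 1 gene were left out of the lists. Promoters run from 250 bases before to 50 after the start (RefSeq, GRCr8). Python 3.11.15, pandas 2.3.3, numpy 2.4.6 and scipy 1.17.1 were used, and the size rule was tested on simulated data.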

Additional observations from a re-analysis of the deposited data

How the results depend on the processing

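The count of 68 genes at least 2-fold apart (19 higher, 49 lower) was 62 (18 and 44) with size factors over all 10 libraries, 68 (19 and 49) when scaled by total reads in listed genes, and 54 (13 and 41) with a pseudocount of 10. It moved to 238 (125 and 113) from a mean level of 10 upward and to 248 (135 and 113) with no filter, where higher genes outnumbered lower ones, and to 37 (7 and 30) from a mean level of 200 upward. It was 327 (121 and 206) at 1.5-fold and 35 (6 and 29) where the counting interval had to lie wholly past 2-fold. A setting chosen after seeing the data, setting PNU 12 h against PNU 30 min instead, gave 44 (19 and 25). Of the 68 genes 27 also passed the rule there, 2-fold and a mean level of 50; of the 21 named ones 7 did, and all 21 had the same sign. Of 217 genes followed one by one (those the naming rule gives and 11 more that the text names), all kept their direction under the planned settings and moved by less than their counting intervals. Size factors over all libraries put 3 of them across 2-fold: Cxcl1 (-0.988) and Dhrs3 (-0.991) fell short of it and Mt1m (1.01) passed it. The pseudocount of 10 took 5 below it: Tmtc1 (-0.89), Cxcl1 (-0.995), Rab25 (0.87), Mmp10 (0.96) and Dhrs3 (-0.86). With PNU 30 min 16 of the 217 crossed 2-fold. The shares of list members above 0 moved by more than their counting interval for 1 list with size factors over all libraries and for 8 with PNU 30 min. No paired analysis was possible because each group had 1 library and the labels give no replicate numbers. Depth limits most the genes under a mean level of 100, which hold 24 of the 68. With 1 library a side, a library effect and the compound cannot be told apart. With PNU 30 min as the reference, the time of treatment differs as well.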

Other observations

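Transcripts of the mitochondrial genome were read unevenly. Mt-nd4, a subunit of respiratory complex I, had a level of 2189 in PNU 12 h and 4181 in DMSO 12 h (log2 ratio -0.93, interval -1.01 to -0.86), while the other 12 mitochondrially encoded protein genes had log2 ratios from -0.17 (Mt-nd3) to 0.27 (Mt-nd6). Among the 10 libraries Mt-nd4 was lowest in PNU 12 h on the shared scale, at 2055 against 2524 to 4162 in the 8 others and 3886 in DMSO 12 h.

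Other values came from entries named by a sequence number. AY172581.19, for which the tables give no other annotation, had 544 in PNU 12 h and 189.8 in DMSO 12 h (log2 ratio 1.52, interval 1.27 to 1.78). On the shared scale it was 510.4 in PNU 12 h, 176 in DMSO 12 h and at most 272 in any other library. Of the 6 other tested entries with this prefix 4 had negative and 2 positive log2 ratios, from -0.50 (AY172581.18) to 0.92 (AY172581.15). Entries whose names share the prefix AABR07015 included 5 of the 68 genes, 4 lower and 1 higher. The number of tested entries with this prefix is not given here. The count therefore cannot be set against the 0.604% past 2-fold over all tested genes. AABR07015057.1 had 1205 in PNU 12 h and 3046 in DMSO 12 h (log2 ratio -1.34), and on the shared scale it ranged in the other libraries from 1157 in PNU 1 h to 4463 in nicotine 1 h. AABR07015006.1 was the higher one, with 657 in PNU 12 h and 307 in DMSO 12 h (log2 ratio 1.099). These entries were picked after their values were seen, and no cause was tested.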
